A study of Mus musculus with 10 samples.

Results

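The interleukin 1 (IL-1) family, the interleukin 6 (IL-6) family and tumour necrosis factor (TNF) are the main inflammatory cytokines of injured barrier tissue, and 9 of their genes were followed in the distal colorectum of mice with and without the growth factor gene Pdgfc and with and without local irradiation. The genes were Il1a, Il1b, Il1rn and Il33 of the IL-1 family, Il6, Il11, Osm and Lif of the IL-6 family, and Tnf. They were chosen by name: each probe set whose platform annotation gives 1 of these symbols and no other gene was taken. This gave 12 probe sets for all 9 genes, of 18193 genes with a probe set on the array. The 4 groups of C57BL/6J mice were Pdgfc+/+ without irradiation (unirradiated wild type, n = 2), Pdgfc-/- without irradiation (unirradiated knockout, n = 2), Pdgfc+/+ given 25 Gy (irradiated wild type, n = 3) and Pdgfc-/- given 25 Gy (irradiated knockout, n = 3). Irradiation was local γ-irradiation at 2.14 Gy/min under chloral hydrate anaesthesia, and tissue from about 1 cm above the anus was taken 8 weeks later. The age and sex of the mice and the construction of the Pdgfc-/- allele are not given in the labels, which call the replicates biological.

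IL-1α and IL-1β signal through the receptor IL1R1 and the adaptor MyD88 to the transcription factor NF-kB, the IL-1 receptor antagonist occupies the same receptor without signalling, and TNF reaches NF-kB through its own receptors. IL-6, IL-11, oncostatin M and LIF share the receptor chain gp130 (Il6st) and act through the kinase JAK and the transcription factor STAT3, which induces the feedback inhibitor SOCS3 and acute-phase proteins. IL-33 is a nuclear alarmin of stromal, endothelial and epithelial cells that is released on damage. In the colon these cytokines come mainly from macrophages, neutrophils, stromal cells and damaged epithelium.

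The transcript levels were MAS5 signals on a log2 scale, and a difference of 1 is a 2-fold change of signal. A value is dim when it lies below its array's median over all probe sets, which was 6.64 to 7.18. Of the 9 genes, 1 (Il1rn) was above the median on all 4 unirradiated arrays, and 3 (Il1a, Il6 and Il11) were above it on none of them. On the 6 irradiated arrays, 4 of the 9 were above the median throughout. A gene was tested when it was above the median on at least 2 arrays, which 12568 genes and 8 of the 9 cytokine genes met. Il1a and Il6 met it through irradiated arrays alone, so their presence among the genes tested already depends on where they are high, and Il11 did not meet it.

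Several facts of the arrays touch every irradiation result below. Xist, the RNA of the inactive X chromosome, was at 13.48 to 14.18 on the 3 irradiated wild-type arrays and replicate 1 of irradiated knockout, so these 4 carry a female pattern and the other arrays a male one. In wild type, sex and irradiation therefore cannot be told apart. The 3′ minus 5′ log2 signal of Gapdh, a sign of RNA integrity, was -0.54 to -0.35 on the irradiated arrays and -0.32 to 0.02 on the unirradiated arrays. The same measure for Actb was 0.44 to 0.58 and 0.35 to 0.66, which overlap. Pdgfc was at 7.01 to 7.50 in unirradiated wild type and 5.62 to 6.42 in unirradiated knockout, and at 8.56 to 8.75 against 6.26 to 7.15 after irradiation, so it was lower in each knockout group. Absorptive colonocyte markers, which define the labelled tissue, were above the array median for all 12 genes on each unirradiated array and for 11 or 12 on each irradiated array. Their mean log2 signal was 13.13 to 13.56 without irradiation and 11.45 to 12.52 after it.

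The tissue also differed in its other cell markers. After irradiation, 15.8% of all genes tested were called higher and 8.34% lower in wild type, and 14.0% and 9.50% in knockout. All squamous epithelium markers but Krt6a, Sprr1a and Lor met the filter through irradiated arrays alone. The macrophage markers Cd163 and Fcgr1 and the neutrophil markers S100a9 and Csf3r did too. The counts called therefore depend in part on where these genes are high. The mean of 15 squamous epithelium markers was 4.62 to 5.67 on the unirradiated and 9.54 to 12.69 on the irradiated arrays, with 12 of 15 called higher in wild type and 15 of 15 in knockout. For 12 macrophage markers it was 7.05 to 8.37 and 9.97 to 10.91, and 11 of 12 were called higher in each genotype. For 9 neutrophil markers it was 4.37 to 5.41 and 6.50 to 8.42, with 3 of the 4 tested called higher in wild type and 2 of the 4 in knockout. S100a8 and S100a9, which squamous epithelium also makes, were called in both genotypes, and the granulocyte growth factor receptor Csf3r was called in wild type, with means of 5.68 without and 8.11 after irradiation (6.08 and 7.35 in knockout). Ngp was tested and not called. The other 5, Mmp8, Cxcr2, Camp, Mpo and Elane, were too dim to be tested. Of these, Mmp8 had means of 4.90 and 7.11 in wild type and 4.56 and 5.55 in knockout, Cxcr2 4.78 and 6.10, then 4.92 and 4.86, and Camp 4.18 and 4.81, then 2.80 and 5.36. Mpo and Elane had group means of 5.12 to 5.73 and 3.72 to 4.85. Striated muscle markers were at 4.06 and 4.38 in unirradiated wild type, 8.67 and 9.03 in unirradiated knockout and 5.65 to 12.57 on the irradiated arrays. Of the other lists, T and NK cell markers were called higher for 5 and 6 of 7 genes in wild type and knockout, mast cell markers for 6 and 7 of 9, fibroblast markers for 10 and 9 of 10, endothelial markers for 8 of 9 in each, and smooth muscle markers for 0 of 8 in each. Striated muscle markers were called higher for 6 and 2 of 10, and colonocyte markers lower for 7 of 12 in each. T and NK cell markers above the array median numbered 1 to 3 on each unirradiated and 5 to 7 on each irradiated array. For mast cell markers these numbers were 2 to 3 and 6 to 9. Some genes of these 2 lists thus met the filter only with irradiated arrays, and their counts depend in part on where they are high. The part of these cell types in the cytokine values was not tested, and in bulk tissue fewer cells of a type and less RNA per cell cannot be told apart.

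**Figure D1:**
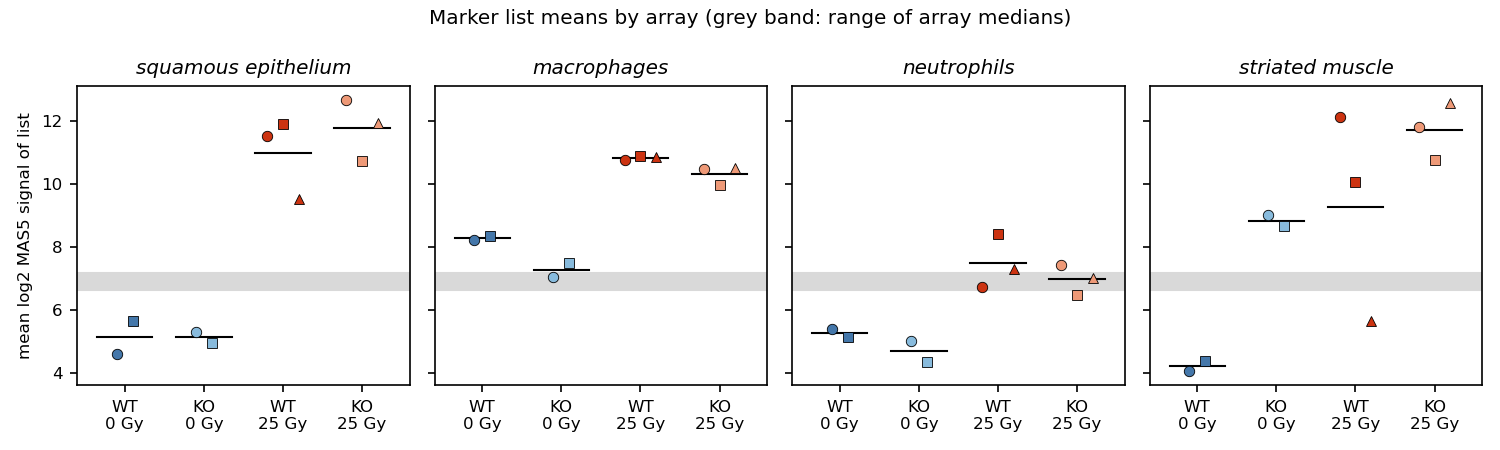
Mean log2 MAS5 signal of 4 marker lists (vertical axis) on each of the 10 arrays by group (horizontal axis); symbols tell replicates 1 (circle), 2 (square) and 3 (triangle) apart, black lines are group means and the grey band is the range of array medians. Squamous, macrophage and neutrophil means are higher on all 6 irradiated than on all 4 unirradiated arrays, and striated muscle is lowest in unirradiated wild type.

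The start regions of the cytokine genes are given for Il1a, Il1b and Tnf, the genes called higher after irradiation in knockout, and for Il6, called in wild type and the 1 called gene whose window held an NF-kB match. RefSeq's table for GRCm38.p6 held promoter windows for 8 of the 9 genes (12 windows), and Osm had no entry. The 250 bases before the transcription start were searched on both strands for an NF-kB consensus (GGGNNNTTCC), a STAT consensus (TTCNNNGAA) and an AP-1 consensus (TGANTCA). Capitals mark the matches, which did not overlap each other, and each line reads 5′ to 3′ on the gene's strand and ends at the base before the start.
Il1a, chr2:129309973-129310222, − strand: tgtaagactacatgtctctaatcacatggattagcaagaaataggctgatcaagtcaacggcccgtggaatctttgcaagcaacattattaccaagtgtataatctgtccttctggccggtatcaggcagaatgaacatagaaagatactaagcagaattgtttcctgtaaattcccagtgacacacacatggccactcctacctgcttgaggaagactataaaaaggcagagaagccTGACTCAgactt
Il1b, chr2:129371140-129371389, − strand: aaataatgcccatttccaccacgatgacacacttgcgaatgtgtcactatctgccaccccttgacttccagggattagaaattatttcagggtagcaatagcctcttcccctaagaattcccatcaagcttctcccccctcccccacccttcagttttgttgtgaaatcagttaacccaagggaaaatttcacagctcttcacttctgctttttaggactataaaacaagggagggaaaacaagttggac
Il6, chr5:30012864-30013113, + strand: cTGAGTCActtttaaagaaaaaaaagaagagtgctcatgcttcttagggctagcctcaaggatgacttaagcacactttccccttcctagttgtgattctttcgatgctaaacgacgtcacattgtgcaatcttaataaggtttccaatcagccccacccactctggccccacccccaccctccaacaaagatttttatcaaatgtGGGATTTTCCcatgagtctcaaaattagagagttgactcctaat
Tnf, chr17:35202008-35202257, − strand: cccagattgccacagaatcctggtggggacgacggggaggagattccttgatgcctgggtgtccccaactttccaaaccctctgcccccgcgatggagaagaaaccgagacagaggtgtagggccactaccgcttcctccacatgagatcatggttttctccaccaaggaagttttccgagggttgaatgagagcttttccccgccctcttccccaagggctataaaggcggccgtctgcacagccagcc

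Il6 held an NF-kB match, GGGATTTTCC, at 44 to 35 bases before its start and an AP-1 match, TGAGTCA, at 249 to 243. Il1a held the AP-1 match TGACTCA at 12 to 6 bases before its start. The windows of Il1b, Il33 and Tnf held none of the 3 motifs. Elsewhere, an Il1rn window held GGGTTTTTCC and another TGAGTCA, an Il11 window held TGAGTCA, and the Lif window held TGACTCA. In all, 2 of the 12 windows held the NF-kB consensus, 5 the AP-1 consensus and 0 the STAT consensus. Among 32851 promoter windows of the same length, 4.65% held the NF-kB consensus, 6.75% the AP-1 consensus and 7.02% the STAT consensus. A match is a description of the letters and does not show that a factor binds there.

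Irradiation in wild type was followed by higher signals of Il1a, Il1b, Il33, Il6 and Osm. These 5 of the 8 genes tested were called higher and 0 lower by limma at a Benjamini-Hochberg adjusted p under 0.05 over all genes tested. Of all genes, 15.8% were called higher and 8.34% lower in the same comparison. Il1rn, Lif and Tnf did not pass the test. In knockout 3 of the 8 were called higher, Il1a, Il1b and Tnf, against 14.0% of all genes, and 0 were called lower, against 9.50%. The median difference over all genes tested was 0.07 in wild type and 0.01 in knockout. With the sex pattern as a covariate, whose effect can be read from the irradiated knockout arrays alone, 0 of the 8 were called in wild type, and 16 genes in all. The differences of the 5 were then 3.46 for Il1a, 3.73 for Il1b, 5.35 for Il33, 4.91 for Il6 and 1.54 for Osm, with larger errors and adjusted p of 0.2 to 0.47.

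Il1b encodes IL-1β, which is made as a precursor and cut by caspase 1. Its log2 signal was 6.27 and 7.27 in unirradiated wild type, and 9.52, 11.11 and 11.57 in irradiated wild type. In knockout it was 7.01 and 6.37 without irradiation, and 10.49, 9.51 and 11.00 after it. All 6 irradiated arrays were thus above all 4 unirradiated arrays, and the genotypes overlapped at each dose. The difference was 3.96 ± 0.61 (SE) in wild type, a 15.6-fold rise (limma, adjusted p = 0.0024), and 3.64 ± 0.61 in knockout, a 12.5-fold rise (adjusted p = 0.0034). Replicate 1 of irradiated knockout is the array with the female pattern in that group, and without it the knockout difference was 3.56 (adjusted p = 0.013).

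Il1a encodes IL-1α, which is active without cleavage and is stored in epithelial cells. It was dim on all unirradiated arrays, at 2.95 and 4.28 in wild type and 4.43 and 3.02 in knockout. After irradiation it was at 7.04, 7.92 and 8.19 in wild type and 7.07, 5.86 and 6.99 in knockout. No irradiated array reached down to an unirradiated one. It rose by 4.10 ± 0.73 (SE) in wild type, 17.2-fold (limma, adjusted p = 0.0044), and by 2.92 ± 0.73 in knockout, 7.55-fold (adjusted p = 0.019). The knockout call was lost without replicate 2 of unirradiated knockout (2.21, adjusted p = 0.12), and without replicate 1 or 3 of irradiated knockout (2.70, adjusted p = 0.07, and 2.74, adjusted p = 0.065).

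Il1rn encodes the IL-1 receptor antagonist and was bright in every group. On its brightest probe set it was at 11.22 and 12.02 in unirradiated wild type, 11.09, 11.28 and 11.18 in irradiated wild type, 11.36 and 10.74 in unirradiated knockout, and 11.01, 10.20 and 10.66 in irradiated knockout. Irradiated and unirradiated arrays overlapped in both genotypes. The difference was -0.44 ± 0.29 (SE) in wild type, with a 95% interval of -1.09 to 0.21, and -0.42 ± 0.29 in knockout, with an interval of -1.07 to 0.23. Neither passed the test (limma, adjusted p = 0.3 and 0.32). The remaining Il1rn probe sets gave 0.04 and -0.12 in wild type and 0.04 and -0.27 in knockout.

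Il33 encodes the alarmin IL-33. In unirradiated wild type its 2 arrays were dim and far apart, at 1.10 and 6.21, and in irradiated wild type it was at 10.19, 10.80 and 10.55. The rise was 6.86 ± 1.14 (SE), or 116-fold (limma, adjusted p = 0.0032), and against so dim a baseline the fold is uncertain. Because the 2 unirradiated arrays differ so much, the size rests on which is used: without replicate 1 it was 4.30 (adjusted p = 0.0055) and without replicate 2 it was 9.41 (adjusted p = 3.8e-04). In knockout Il33 was already at 7.51 and 7.65 without irradiation, and at 10.20, 8.77 and 8.62 after it. All 3 irradiated arrays were above the 2 unirradiated ones, and the difference of 1.62 ± 1.14 did not pass the test (adjusted p = 0.33, 95% interval -0.93 to 4.17). It passed without replicate 1 or replicate 2 of unirradiated wild type (adjusted p = 0.029 and 0.031), which leaves the knockout values as they are and takes the spread between those arrays out of the shared variance.

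Il6 encodes IL-6, the ligand that gives its family its name. It was dim on all unirradiated arrays, at 3.52 and 0.42 in wild type and 1.29 and 2.43 in knockout. After irradiation it was at 7.43, 5.71 and 7.94 in wild type and 5.75, 5.78 and 5.43 in knockout, so the irradiated arrays were above the unirradiated ones in both genotypes, though all 3 of irradiated knockout were still below their array medians. The wild-type rise was 5.05 ± 1.32 (SE), 33.2-fold (limma, adjusted p = 0.022), and the knockout difference of 3.79 ± 1.32 did not pass (adjusted p = 0.064). The wild-type call was lost without replicate 2 of unirradiated wild type (3.50, adjusted p = 0.082), without the first irradiated wild-type replicate (4.85, adjusted p = 0.079) or that group's replicate 3 (4.59, adjusted p = 0.08). The knockout difference passed without replicate 1 or 2 of unirradiated wild type (adjusted p = 0.045 and 0.025).

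Osm encodes oncostatin M, made mainly by myeloid cells. Its log2 signal was 6.39 and 5.94 in unirradiated wild type and 7.15, 8.28 and 8.05 in irradiated wild type, without overlap. The rise was 1.66 ± 0.37 (SE), 3.16-fold (limma, adjusted p = 0.012), and it was lost without replicate 2 of unirradiated wild type (1.44, adjusted p = 0.066). In knockout Osm was at 6.70 and 6.86 without irradiation and at 7.26, 6.92 and 7.36 after it. The groups did not overlap there either, but they were close, and the difference of 0.40 ± 0.37 did not pass (adjusted p = 0.47, 95% interval -0.43 to 1.23).

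Lif encodes leukaemia inhibitory factor and stayed near the array medians on its brighter probe set. It was at 7.71 and 6.98 in unirradiated wild type, 7.22, 7.05 and 7.30 in irradiated wild type, 6.46 and 6.52 in unirradiated knockout, and 7.01, 7.04 and 7.03 in irradiated knockout. Wild-type arrays overlapped across dose, and the 2 unirradiated knockout arrays were the lowest of the 10. The irradiation difference was -0.16 ± 0.29 (SE) in wild type and 0.54 ± 0.29 in knockout, and neither passed (limma, adjusted p = 0.74 and 0.21). The dimmer Lif probe set gave differences of the opposite sign, 1.59 ± 0.94 and -0.58 ± 0.94, so the probe sets disagree on its direction.

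Il11 encodes IL-11, a gp130 ligand made by fibroblasts. It was dim on all but 1 array, at 2.46 and 3.10 in unirradiated and 6.31, 5.60 and 7.47 in irradiated wild type, and at 1.46 and 2.69 in unirradiated and 6.17, 3.29 and 5.97 in irradiated knockout. Each irradiated array was above all 4 unirradiated ones. When the fit was run without the filter on dim genes, the difference was 3.67 ± 0.96 (SE) in wild type (limma, adjusted p = 0.028) and 3.07 ± 0.96 in knockout (adjusted p = 0.058).

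Tnf encodes TNF, a cytokine of activated macrophages and T cells that is released from the cell surface by cleavage. Its log2 signal was 7.56 and 6.80 in unirradiated wild type and 7.06, 7.76 and 7.63 in irradiated wild type, which overlap. In unirradiated knockout it was at 5.71 and 3.90, the 2 lowest values of the 10 arrays, and in irradiated knockout it was at 7.75, 7.72 and 7.58. The wild-type difference was 0.30 ± 0.51 (SE; limma, adjusted p = 0.7), with a 95% interval of -0.83 to 1.44. In knockout it rose by 2.88 ± 0.51, or 7.35-fold (adjusted p = 0.0042). The knockout rise was 1.97 without replicate 2 of unirradiated knockout (adjusted p = 0.023) and 2.84 without replicate 1 of irradiated knockout (adjusted p = 0.016). It ended at the level of irradiated wild type, 7.68 ± 0.09 (SD, n = 3) against 7.48 ± 0.37 (SD, n = 3).

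**Figure D2:**
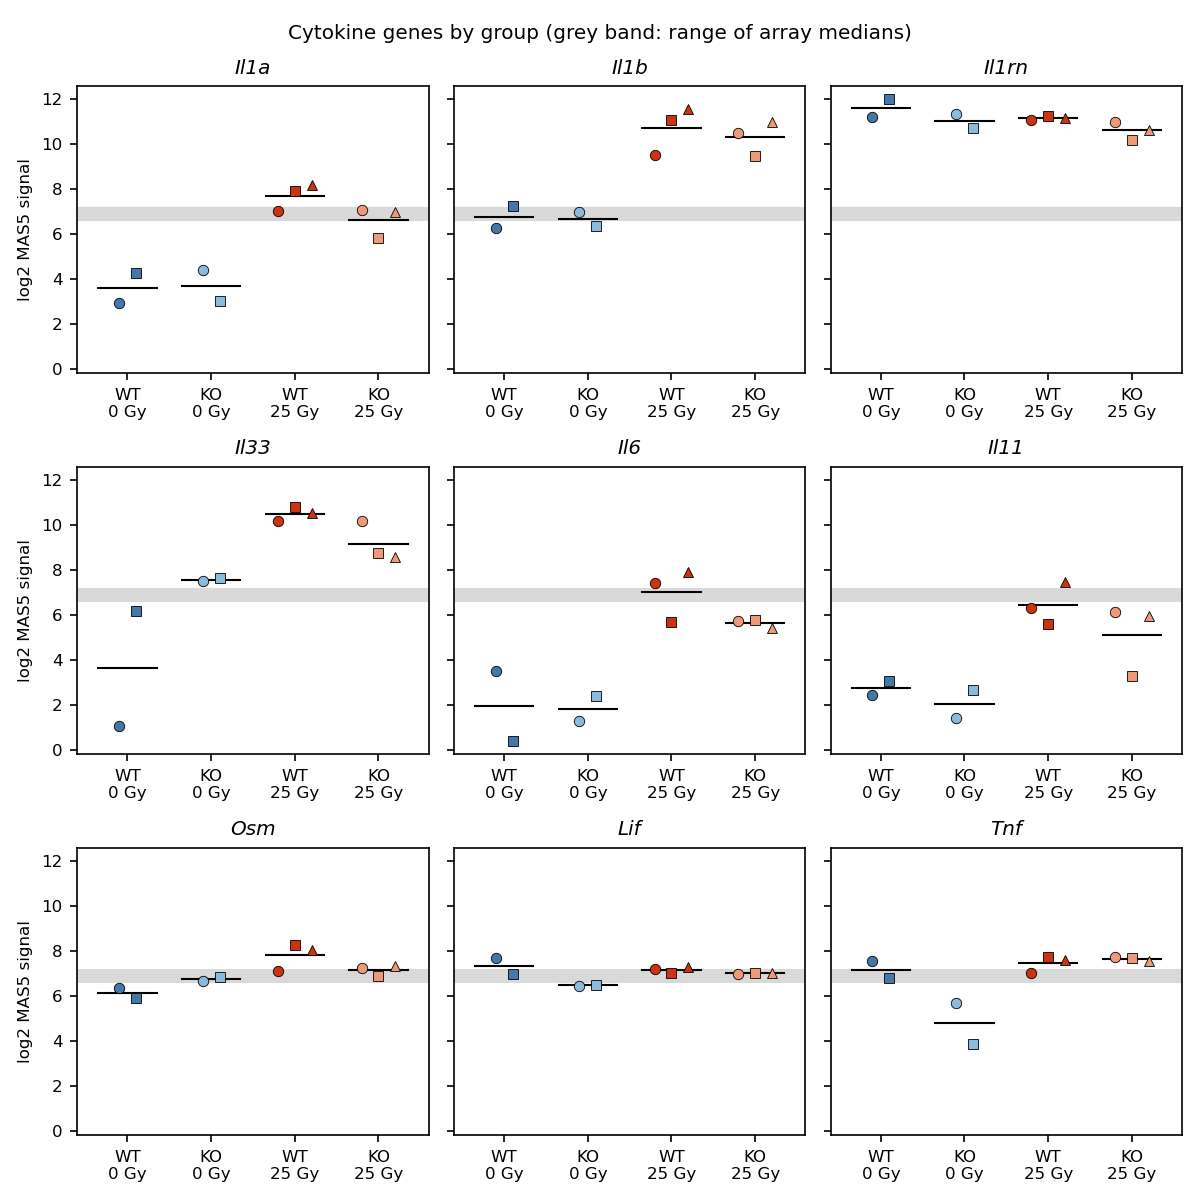
Log2 MAS5 signal (vertical axis) of the 9 cytokine genes, each on its brightest probe set, on the 10 arrays by group (horizontal axis); symbols tell replicates 1 (circle), 2 (square) and 3 (triangle) apart, black lines are group means and the grey band is the range of array medians. For Il1a, Il1b, Il33, Il6, Il11 and Osm the 6 irradiated arrays lie above the 4 unirradiated ones, with a narrow gap for Osm. The share of all genes that separate in this way is not given here, so the separation is a description. Tnf is low in unirradiated knockout alone, and Il33 has the widest spread within a group, 1.10 and 6.21 in unirradiated wild type.

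Each comparison within a genotype shares its arrays with the genotype comparisons, so the values are given side by side and are not independent. Without irradiation, 0 of the 8 cytokine genes tested differed between knockout and wild type, against 1.23% of all genes called in either direction, and 3 of the 8 had an unadjusted p under 0.05, against 16.6% of all genes. Tnf had the smallest p and had a knockout minus wild-type difference of -2.37 ± 0.55 (SE), with the arrays apart (limma, unadjusted p = 0.0017, adjusted p = 0.079). It was called without replicate 1 of unirradiated knockout (-3.28, adjusted p = 0.03). Il33 had a difference of 3.92 ± 1.25, with both knockout arrays above both wild-type arrays (adjusted p = 0.16), and was called without replicate 2 of unirradiated wild type (6.48, adjusted p = 0.0029). Lif had -0.86 ± 0.32 on its brighter probe set (adjusted p = 0.23). Its dimmer probe set had 1.69 ± 1.03, with both knockout arrays above both wild-type arrays, so the probe sets disagree on direction here too. The IL-1 ligands were close together: Il1b had -0.08 ± 0.67, with an interval of -1.58 to 1.42, and Il1a had 0.11 ± 0.80, with an interval of -1.68 to 1.90. Marker means also differed between the unirradiated genotypes. Macrophage markers were at 8.23 and 8.37 in wild type and 7.05 and 7.50 in knockout. T and NK cell markers were at 5.87 and 5.84, then 4.68 and 4.88. Of the markers tested, 0 of 12 and 1 of 7 were called lower, against 0.804% of all genes. Endothelial, smooth muscle and striated muscle means were higher in knockout. The part of these cells in the genotype differences was not tested.

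After irradiation, again 0 of the 8 differed between the genotypes by limma, and 0% of all genes were called, with 500 genes at an unadjusted p under 0.05. None of the 8 was among those 500. Of the 8, 7 were lower in mean in irradiated knockout and Tnf was higher, at 0.20 ± 0.45 (SE; adjusted p = 1). The median difference over all genes tested was 0.00, and the share of all genes lower in mean is not given here. Lif counted among the 7 at -0.16 ± 0.26. Il1rn had the smallest unadjusted p, 0.058, at -0.56 ± 0.26, and all 3 knockout arrays were below all 3 wild-type arrays. Il1a had -1.08 ± 0.65, Il6 -1.37 ± 1.18, Il33 -1.32 ± 1.02 and Osm -0.64 ± 0.33, and in each the groups overlapped. The irradiated knockout group holds 1 array of the female pattern and irradiated wild type holds 3. Between those 4 arrays alone the differences were -0.65 for Il1a, -1.28 for Il6, -0.31 for Il33 and -0.17 for Il1rn, with 1 knockout array whose spread is assumed to be that of the other groups.

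Whether irradiation acted differently in the 2 genotypes was tested by the interaction, the knockout irradiation difference minus the wild-type one. By limma 0 of the 8 cytokine genes passed, against 0.207% of all genes, and 3 of the 8 had an unadjusted p under 0.05, against 10.4% of all genes. Tnf had 2.57 ± 0.72 (SE; unadjusted p = 0.0052, adjusted p = 0.28), Il33 had -5.24 ± 1.61 (unadjusted p = 0.009, adjusted p = 0.3) and Osm had -1.26 ± 0.53 (unadjusted p = 0.038, adjusted p = 0.45). Il33 passed without replicate 2 of unirradiated wild type (-7.79, adjusted p = 0.017). The calls of Il33, Il6 and Osm in wild type and of Tnf in knockout are thus not shown to differ between the genotypes. For Il1b the interaction was -0.32 ± 0.87, with an interval of -2.26 to 1.62.

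**Figure D3:**
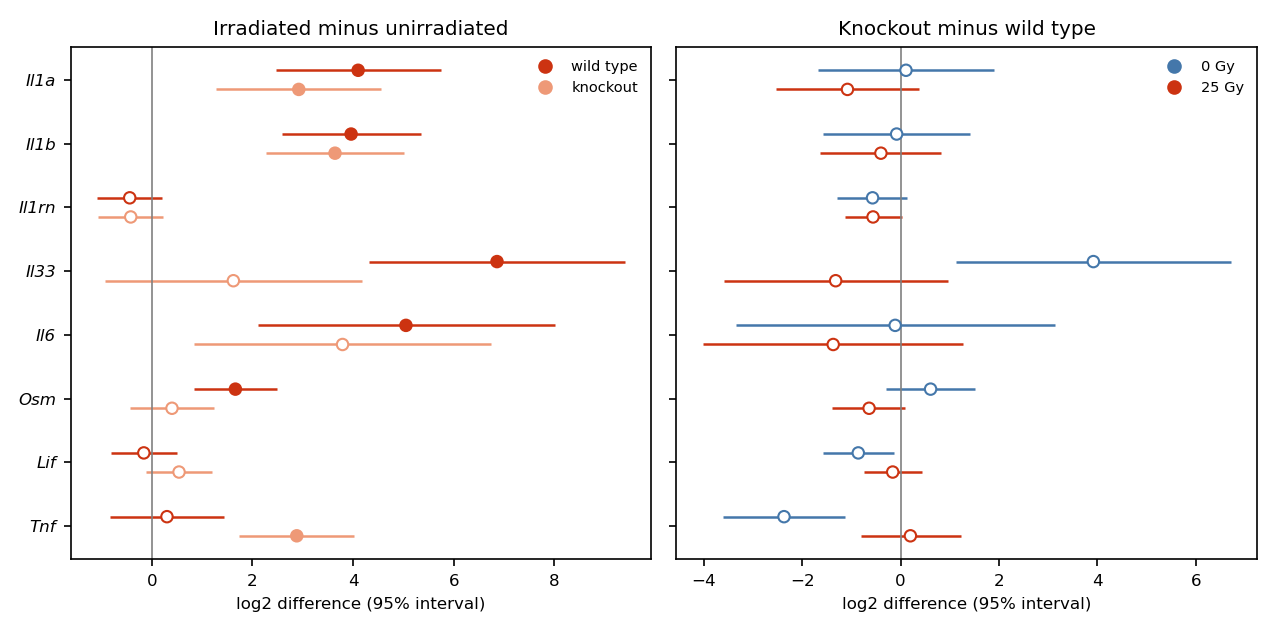
Log2 differences (horizontal axis) with 95% intervals for the 8 cytokine genes tested (vertical axis): irradiated minus unirradiated in each genotype (left) and knockout minus wild type at each dose (right). Filled points passed an adjusted p of 0.05; they are 5 genes in wild type and 3 in knockout on the left, and none on the right.

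The other ligand genes of these families were read from a list of names, of which 10 were on the array under a probe set of 1 gene and 7 were tested. In each genotype 3 of the 7 were called higher after irradiation and 0 lower. Of all genes, 15.8% were called higher in wild type and 14.0% in knockout. The median difference of the 7 was 2.54 in wild type and 2.53 in knockout, against 0.07 and 0.01 over all genes tested. Il1f6, Il1f8, Il1f9 and Ltb met the filter through irradiated arrays alone, so these counts and medians already depend on where they are high. Il1f9 (Il36g), an IL-1 family cytokine of stratified epithelium, was at 5.96 and 6.05 in unirradiated and 9.30, 9.60 and 8.28 in irradiated wild type. It rose by 3.05 ± 0.53 (SE; limma, adjusted p = 0.0041) there and by 2.84 ± 0.53 in knockout (adjusted p = 0.0057), where it missed the threshold without replicate 2 of unirradiated knockout (2.35, adjusted p = 0.058). Its relative Il1f6 (Il36a) rose by 5.01 ± 1.10 in knockout (adjusted p = 0.012) and by 3.41 ± 1.10 in wild type, where the adjusted p of 0.05 was just inside the threshold and the call was lost in 15 of 20 alternatives. Without replicate 1 of unirradiated wild type that difference was 2.03 (adjusted p = 0.34), and without replicate 1 of unirradiated knockout the knockout one was 3.82 (adjusted p = 0.11). Il1f8 (Il36b) rose by 2.92 ± 0.92 in knockout (adjusted p = 0.046), a call lost in 10 of 20 alternatives. These 3 genes moved with the squamous markers given above, and the part of those cells was not tested. Ltb, the lymphotoxin β subunit of lymphocytes, rose by 4.12 ± 0.90 in wild type (adjusted p = 0.011), and by 3.65 without replicate 1 of unirradiated wild type (adjusted p = 0.088), beside a T and NK cell marker mean of 4.68 to 5.87 on unirradiated and 6.91 to 8.17 on irradiated arrays. Between the genotypes 0 of the 7 passed at either dose, and Ltb had the smallest unadjusted p, 0.03, after irradiation.

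Of the 10 receptor genes, all tested, 6 rose and 1 fell after irradiation in wild type, with a median of 1.11, and 6 rose and 0 fell in knockout, with a median of 0.82. The medians over all genes were 0.07 and 0.01. Of all genes, 15.8% were called higher and 8.34% lower in wild type, and 14.0% and 9.50% in knockout. Il1r1, the signalling receptor for IL-1α and IL-1β, was at 7.29 and 6.92 in unirradiated and 9.51, 9.99 and 9.64 in irradiated wild type. It rose by 2.61 ± 0.28 (SE; limma, adjusted p = 4.9e-04). In knockout it was at 7.53 and 8.16 without irradiation, above both unirradiated wild-type arrays, and at 9.09, 8.41 and 8.58 after it, below all 3 irradiated wild-type arrays. The knockout irradiation difference of 0.85 ± 0.28 did not pass (adjusted p = 0.051), nor did the genotype differences of 0.75 ± 0.30 without irradiation (adjusted p = 0.26) and -1.02 ± 0.25 after it (adjusted p = 1). The interaction of -1.77 ± 0.39, the lowest among the receptor genes, did not pass either (adjusted p = 0.17). Il1r2, the decoy receptor that binds IL-1 without signalling, was at 6.74 and 5.87 in unirradiated and 8.73, 9.47 and 8.15 in irradiated wild type, and at 5.10 and 3.28 and then 9.39, 7.30 and 9.37 in knockout. It rose by 2.48 ± 0.74 (adjusted p = 0.037) and 4.50 ± 0.74 (adjusted p = 0.0031).

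Of the IL-6 family's receptor chains, Il6st, Lifr and Osmr rose after irradiation in both genotypes. Il6st, the shared chain gp130, rose by 1.13 ± 0.16 (SE) in wild type (limma, adjusted p = 0.0018) and 0.80 ± 0.16 in knockout (adjusted p = 0.0085; 0.69 and 0.075 without replicate 2 of unirradiated knockout). Lifr, the LIF receptor chain, rose by 1.85 ± 0.24 in wild type (adjusted p = 0.0011) and 1.04 ± 0.24 in knockout (adjusted p = 0.014). Osmr, the oncostatin M receptor chain, was at 9.15 and 9.40 in unirradiated wild type and at 7.58 and 7.78 in unirradiated knockout. After irradiation it was at 11.03, 10.62 and 11.01 in wild type and 10.35, 9.98 and 10.29 in knockout. Thus it rose by 1.61 ± 0.18 and 2.53 ± 0.18 (adjusted p = 6.4e-04 and 8.8e-05), and it was lower in unirradiated knockout, at -1.60 ± 0.20 (adjusted p = 0.0066). That genotype call was lost without replicate 1 of unirradiated knockout (-1.50, adjusted p = 0.061). When the Osmr probe sets were averaged, the irradiation differences were 0.73 in wild type (adjusted p = 0.062) and 1.17 in knockout (adjusted p = 0.01), and the genotype difference was -0.93 (adjusted p = 0.13). With the sex pattern as a covariate the wild-type rise was 1.40 (adjusted p = 0.12).

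Without irradiation 3 of the 10 receptor genes were called lower in knockout and 0 higher, against 0.804% of all genes called lower. They were Osmr and the TNF receptor genes Tnfrsf1b and Tnfrsf1a. Tnfrsf1b, the TNF receptor of immune and endothelial cells (TNFR2), was at 10.31 and 10.51 in unirradiated wild type and at 8.45 and 8.62 in unirradiated knockout. After irradiation it was at 9.48, 9.61 and 9.79 in wild type and 9.53, 9.84 and 9.50 in knockout, so the genotypes overlapped. The unirradiated difference was -1.88 ± 0.18 (SE; limma, adjusted p = 0.0019). It fell by 0.79 in wild type (adjusted p = 0.0096) and rose by 1.09 ± 0.17 in knockout (adjusted p = 0.0022), and its interaction was 1.88 ± 0.23 (adjusted p = 0.017). The interaction call was lost without replicate 1 (1.79, adjusted p = 0.083) or replicate 2 (1.96, adjusted p = 0.058) of unirradiated knockout. Over all 19 alternatives the Tnfrsf1b interaction was lost in 5, ranged from 1.30 to 1.98 and had a highest adjusted p of 0.17. Tnfrsf1a, the widely expressed death-domain receptor TNFR1, was at 11.36 and 11.62 in unirradiated wild type and 10.59 and 10.63 in unirradiated knockout. Its difference of -0.88 ± 0.17 (adjusted p = 0.045) was lost in 14 of 20 alternatives.

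Of 9 genes that cut and release the cytokines, all tested, 1 rose and 1 fell in wild type and 1 rose in knockout, near the shares of all genes (15.8% higher and 8.34% lower in wild type, 14.0% higher in knockout). Nlrp3, the inflammasome sensor, rose by 1.95 ± 0.62 (SE; limma, adjusted p = 0.046) and Gsdmd, the pore-forming gasdermin D, fell by 0.94 (adjusted p = 0.045) in wild type. These calls were lost in 13 of 19 and 14 of 20 alternatives, and without replicate 1 of unirradiated wild type the differences were 0.89 and -0.39. Nlrp3 met the filter through irradiated arrays alone, so its call and the count of genes that rose in wild type already depend on where it is high. Adam17, the sheddase of TNF, rose by 0.80 ± 0.22 in knockout (adjusted p = 0.026), and by 0.51 without replicate 1 of unirradiated knockout (adjusted p = 0.21). Casp1, which cuts pro-IL-1β, was at 11.51 to 12.13 on all 10 arrays. Of 11 signal transduction genes, 1 rose and 2 fell in wild type, and 1 rose and 1 fell in knockout, too few to read against those shares. The riser was Irak3, an inhibitor of IL-1 receptor signalling, at 1.43 ± 0.23 in wild type (adjusted p = 0.0029) and 0.97 ± 0.23 in knockout (adjusted p = 0.016). Tradd, the TNFR1 adaptor, fell in both, by 0.94 (adjusted p = 0.013) and by 0.85 (adjusted p = 0.019). The knockout calls of Irak3 and Tradd were each lost in 7 of 20 alternatives, among them the fits without replicate 1 or 2 of unirradiated knockout.

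Genes that NF-kB and STAT3 are known to induce were read from lists of names. Of 16 NF-kB feedback and target genes tested, 5 rose and 0 fell in wild type, with a median of 0.10 against 0.07 over all genes. In knockout 6 rose and 1 fell, with a median of 0.48 against 0.01. The shares over all genes were 15.8% higher and 8.34% lower in wild type, and 14.0% and 9.50% in knockout. The listed genes that rose in both were the chemokines Cxcl2 (3.51 ± 0.41, SE, in wild type and 3.56 ± 0.41 in knockout) and Ccl2 (2.96 ± 0.36 and 2.58 ± 0.36), and the leukocyte adhesion molecules Icam1 (2.39 ± 0.28 and 3.20 ± 0.28) and Vcam1 (1.46 ± 0.35 and 2.38 ± 0.35). Cxcl2 and Ccl2 met the filter through irradiated arrays alone. Vcam1 in wild type missed the threshold when either unirradiated wild-type array was left out (adjusted p = 0.086 and 0.066) and without the second irradiated wild-type replicate (adjusted p = 0.053). The feedback inhibitors Nfkbia and Tnfaip3 were among those not called. Without irradiation the median difference between genotypes was -0.55 against 0.07 over all genes, and 0 of the 16 passed. Vcam1 and Icam1 had the smallest p, at -1.51 ± 0.38 and -1.19 ± 0.31 (limma, unadjusted p = 0.0031 and 0.0032, adjusted p = 0.095 and 0.097). After irradiation Cxcl2 was at 8.18, 8.09 and 8.19 in knockout, below the 8.80, 9.46 and 10.36 of wild type, and this difference of -1.39 ± 0.36 did not pass (limma, adjusted p = 1).

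Of 16 STAT3 feedback and target genes, 6 rose in wild type and 11 in knockout, with medians of 0.62 and 2.0, and 0 fell in either. The medians over all genes were 0.07 and 0.01. Of all genes, 15.8% were called higher and 8.34% lower in wild type, and 14.0% and 9.50% in knockout. The listed genes that rose in both included Lcn2, an iron-binding neutrophil and epithelial protein, at 3.58 ± 0.35 (SE) in wild type and 4.51 ± 0.35 in knockout (limma, adjusted p = 3.6e-04 and 1.1e-04). The acute-phase gene Hp rose by 8.29 ± 0.93 and 6.62 ± 0.93, from means of 2.34 and 2.11 that were dim. Hp met the filter through irradiated arrays alone. Serpina3n, a protease inhibitor, rose by 3.76 ± 0.59 and 5.17 ± 0.59. Without irradiation 3 of the 16 were lower in knockout, against 0.804% of all genes, and 0 higher, and the median of the list was -1.20. Socs3, the STAT3 feedback inhibitor, was at 9.45 and 11.03 in unirradiated wild type and at 7.68 and 6.84 in unirradiated knockout, without overlap. Its difference was -2.98 ± 0.47 (adjusted p = 0.018), and it was lost without replicate 2 of unirradiated wild type (-2.19, adjusted p = 0.058) or replicate 1 (-3.40, adjusted p = 0.056) or 2 (-2.56, adjusted p = 0.12) of unirradiated knockout.

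After irradiation Socs3 was at 10.78, 10.95 and 11.34 in wild type and 10.87, 11.22 and 10.54 in knockout, which overlap. It rose by 3.61 ± 0.43 (SE) in knockout (limma, adjusted p = 6.1e-04), and its interaction of 2.83 ± 0.61 did not pass (adjusted p = 0.16). Reg3g and Lrg1, an antimicrobial lectin and a secreted glycoprotein of the acute phase, were the others lower in unirradiated knockout, at -6.62 ± 1.23 (adjusted p = 0.038) and -4.82 ± 0.95 (adjusted p = 0.046). Each was lost in 11 of 20 alternatives; without 1 array they ranged from -8.04 to -5.20 and from -6.47 to -3.17. Saa3, a local serum amyloid, was at 8.59 and 8.39 in unirradiated and 11.80, 10.37 and 10.81 in irradiated wild type. In knockout it was at 7.05 and 6.87 without irradiation and at 8.93, 8.79 and 8.72 after it. All irradiated knockout arrays were below all irradiated wild-type arrays, and the difference of -2.18 ± 0.30 did not pass over all genes (unadjusted p = 3.4e-05, adjusted p = 0.22).

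**Figure D4:**
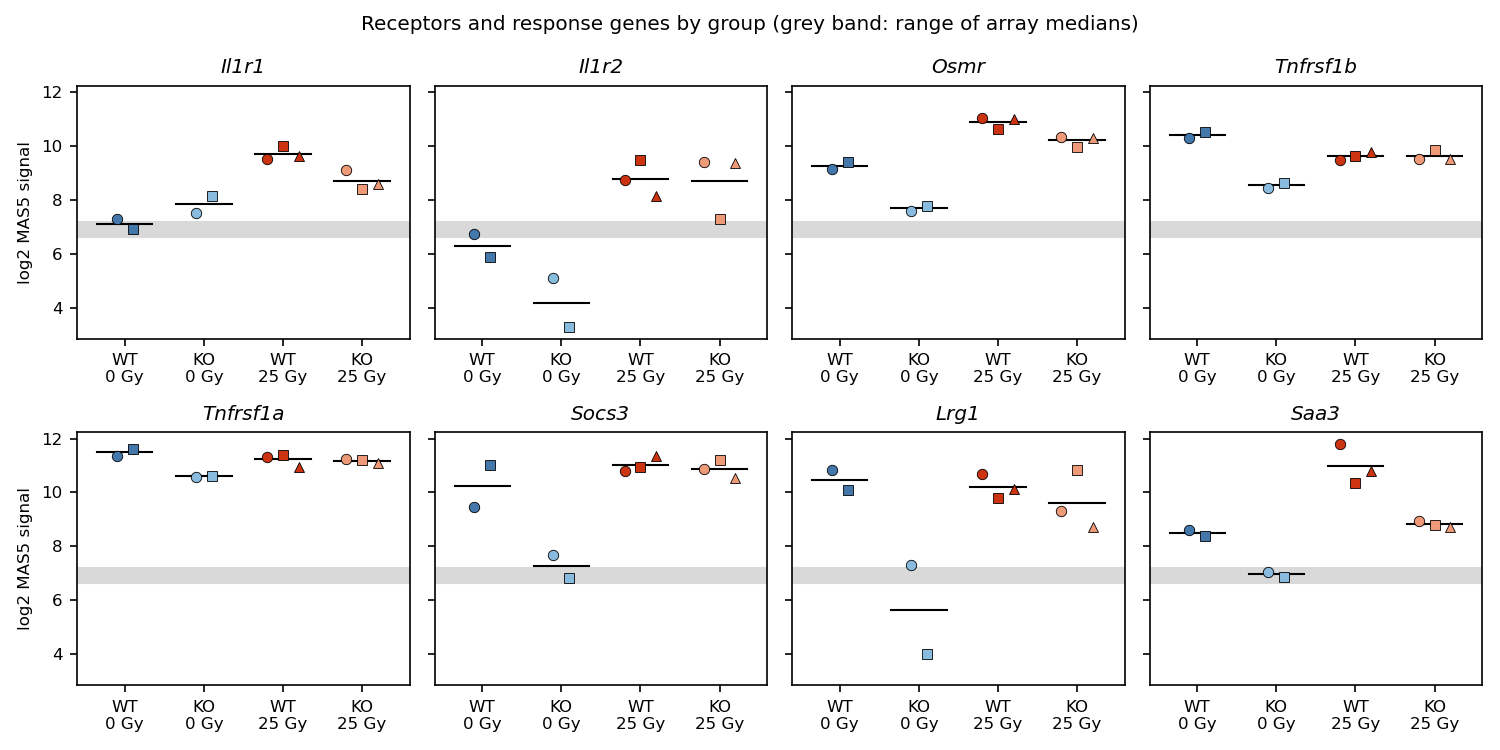
Log2 MAS5 signal (vertical axis) of 5 receptor genes and 3 STAT3-list genes on the 10 arrays by group (horizontal axis); symbols tell replicates 1 (circle), 2 (square) and 3 (triangle) apart, black lines are group means and the grey band is the range of array medians. Il1r2, Osmr, Tnfrsf1b, Tnfrsf1a, Socs3, Lrg1 and Saa3 are lowest in unirradiated knockout, and Saa3 is also lower in irradiated knockout than in irradiated wild type.

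The genes whose profiles were nearest to each cytokine were found by the root mean square of the log2 differences over the 10 arrays, after each gene was centred on its own mean. The arrays fall into irradiated and unirradiated clusters, so this likeness is a description. For Il1b the nearest were Cd53 at 0.42 and Tgm1 at 0.47, and for Il1a they were Cd53 at 0.48 and Tnfrsf11b at 0.49. For Tnf they were Psmb8 at 0.39 and Zbp1 at 0.40. Il6 had Tfec at 0.82 and Stat4 at 0.87, and Il33 had Amy1 at 0.88 and Inhbb at 0.95, the largest distances to a nearest gene among the 8. Osm had Gngt2 at 0.21 and Kcnj10 at 0.25. Il1rn and Lif, whose signals varied least, had Surf6 at 0.24 with Ptpn12 at 0.25, and Tmsb10 at 0.13 with Samd9l at 0.16.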

How the data were processed

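Total RNA from distal colorectum was hybridised to Affymetrix arrays, 1 per mouse (10 arrays, 45101 probe sets). The deposited log2 signals were computed by the authors with MAS5, per the submitters' processing notes (version: not given in the sources used here). That they are log2 values was judged from their range, -4.24 to 15.79, and from the linear mean trimmed by 2% at each tail, which was 500 on each array. Detection calls were not used here, and dim MAS5 signals scatter widely, so the differences of dim genes are uncertain. Precision is limited by how few arrays there are.

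No further normalization or pseudocount was applied. Of the probe sets, 64 were controls, and 34945 had 1 gene in the platform annotation, 932 several and 9160 none; 34741 symbols were updated by gene ID through a RefSeq table (GRCm38.p6). Each gene was its probe set of highest mean. The 4 group means were fitted with limma 3.58.1 (R 4.3.3; 6 residual degrees of freedom, variance trend), with Benjamini-Hochberg adjustment at 0.05 over 12568 genes, and the fit was tested on simulated data. P-values measure the spread between the mice sampled. The 10 cell marker lists covered squamous epithelium, macrophages, neutrophils, T and NK cells, mast cells, fibroblasts, endothelium, colonocytes, smooth muscle and striated muscle. Named are all 9 cytokine genes, up to 4 genes per list past the threshold in a comparison (or the 2 of smallest p where none passed), and the 2 nearest profiles; Casp1, Nfkbia, Tnfaip3, Il1r2 and Tnfrsf1b in wild type, Il1r1 and Lifr in knockout and some neutrophil markers were added after their values were seen. The members and lists were chosen with earlier results of these data known. Same-numbered replicates were not paired, since the correlations of their deviations ran from -0.20 to 0.16 over 13 pairs. Alternatives were other scalings, pseudocounts, filters, variance priors, probe set rules and samples, a replicate block, the sex pattern, and leaving out each array.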

Additional observations from a re-analysis of the deposited data

Results flagged for a closer look

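The TNF receptor gene Tnfrsf1b was flagged because its irradiation effect differed between the genotypes by the interaction test. The difference of the effects, knockout minus wild type, was 1.88 ± 0.23 (SE) on the log2 scale (limma, adjusted p = 0.017). The call was lost in 5 of 19 alternatives, over which the difference ranged from 1.30 to 1.98 and the adjusted p reached 0.17. The signal fell in wild type and rose in knockout, and the 2 unirradiated knockout arrays were the lowest of the 10. Groups of 2 or 3 arrays are too small for the search for single arrays far from their group.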

How the results depend on the processing

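The 8 cytokine genes over 5 comparisons gave 820 values under the alternatives, of which 771 kept their direction and their side of the threshold, 15 lost it, 11 passed it newly and 23 turned sign. Il1b and Tnf in knockout passed in every alternative in which they were tested, at 3.01 to 4.05 and 1.49 to 3.78. With the sex pattern as a covariate, 0 cytokine genes were called in wild type, where that pattern and irradiation run together, and 16 genes in all; Il1a gave 3.46 (adjusted p = 0.32), Il1b 3.73 (0.2), Il33 5.35 (0.3), Il6 4.91 (0.47) and Osm 1.54 (0.4). A filter on the mean, which drops dim genes, left 5 members tested and 3 called in wild type and 1 in knockout. With quantile normalization the Tnf difference in wild type was -0.01 and the Il1rn interaction -0.06; with averaged probe sets that interaction was -0.04. The cause was not tested. Leaving out 1 array at a time gave 3 to 5 genes called higher in wild type and 2 to 5 in knockout, 0 to 1 higher and 0 to 1 lower in unirradiated knockout, and 0 to 1 lower for the interaction. In those fits, differences that turned sign ranged from -0.52 to 0.21 for Lif and -0.07 to 0.68 for Tnf under irradiation in wild type; from -0.59 to 0.81 for Il1a, -1.66 to 1.44 for Il6 and -0.58 to 0.42 for Il1b between unirradiated genotypes; from -1.01 to 0.01 for Il1b and -0.01 to 0.34 for Tnf between irradiated genotypes; and from -0.93 to 0.18 for Il1b, -0.38 to 0.42 for Il1rn and -2.81 to 0.29 for Il6 for the interaction. The replicate number as a block, which pairs only numbers here, lost the calls of Il6 in wild type (4.88, adjusted p = 0.065) and Il1a in knockout (2.71, adjusted p = 0.063); among the other genes it lost Socs3 between unirradiated genotypes (-2.98, adjusted p = 0.062) and the Tnfrsf1b interaction (1.88, adjusted p = 0.073). Il33 in knockout passed with a pseudocount of 64 (1.37, adjusted p = 0.048), and Il6 in knockout passed without a filter (adjusted p = 0.026), without the variance trend (0.023) and over every probe set (0.032). The count of all genes called without each array ran from 1323 to 3469 for irradiation in wild type and from 1189 to 3596 in knockout. The fit of the irradiated arrays of female pattern and the counts over the gene lists were added after seeing the data. Dim signals of Il1a, Il6 and Il11 without irradiation, and of Il33 in unirradiated wild type, limit their fold changes.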
